A study of Mus musculus with 6 samples.

Results

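The genes described here make and move sterols and fatty acids: 18 enzymes of cholesterol synthesis, 6 genes that control SREBP, 8 genes of fatty acid synthesis, 4 of sterol movement and storage, and 4 of efflux. These 40 genes were chosen by name, and all 40 were found among the 24970 rows of the deposited table. RNA was sequenced from primary vascular smooth muscle cells, which contract to set the width of arteries, isolated with collagenase from C57BL/6 male mice (12 mice of 6 weeks, per the labels). They were grown in α-MEM with 10% FBS, a serum that itself carries cholesterol and fatty acids, and both groups bear the treatment label Normal Growth Medium. The siPfkfb3 group (3 samples) received 20 nM siRNA against Pfkfb3, and the siScrambled group (3 samples) 20 nM of scrambled siRNA, both with Lipofectamine RNAiMAX and both for 48 h. An siRNA guides the destruction of mRNAs that it base-pairs with, and Pfkfb3 makes fructose 2,6-bisphosphate, which activates glycolysis. The labels do not say whether the samples came from separate isolations, so p-values measure the spread between these samples only, which may be technical.

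SREBP factors are made as membrane proteins of the endoplasmic reticulum, bound to the escort protein Scap. When the membrane is rich in cholesterol, Insig proteins hold Scap there; when it is poor, Scap carries SREBP to the Golgi, where the protease encoded by Mbtps1 makes the first cleavage and the freed factor turns on genes of sterol and fatty acid synthesis, Insig1 among them. LXR factors (Nr1h2 and Nr1h3) work in the other direction: they bind oxysterols and turn on exporters such as Abca1. In the artery wall, smooth muscle cells that take up cholesterol can become foam cells, which lends interest to both arms.

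Of the 40 genes, 39 averaged 1 FPKM or more (fragments relative to gene length and to the fragments mapped in a library) and were tested; Abcg1 fell below that level. In siPfkfb3, 9 of the 39 were higher and 5 lower at a Benjamini-Hochberg adjusted p under 0.05 by limma on log2(FPKM + 1), and 25 were not called. That is 35.9% called, beside 36.3% of all 11240 genes tested (15.8% higher, 20.5% lower), so the share called was close to the background. Their median log2 fold change was 0.06, beside −0.02 over all genes tested, and their median absolute change was 0.11, beside 0.14. Insig1 was the only one of the 39 to change by more than 0.5, at 0.99, and 26 changed by less than 0.2 in either direction. By role, the 18 enzymes of cholesterol synthesis had 3 higher and 1 lower, and the 6 control genes 2 higher. Fatty acid synthesis had 3 lower, and movement and storage 3 higher. Efflux had 1 higher, the LXR factor Nr1h2, and 1 lower, the exporter Abca1. For 22 of the 39 genes the groups did not overlap (56.4%), beside 49.5% of all genes tested. In these bulk samples, fewer cells expressing a gene and less of its RNA per cell cannot be told apart.

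**Figure D1:**
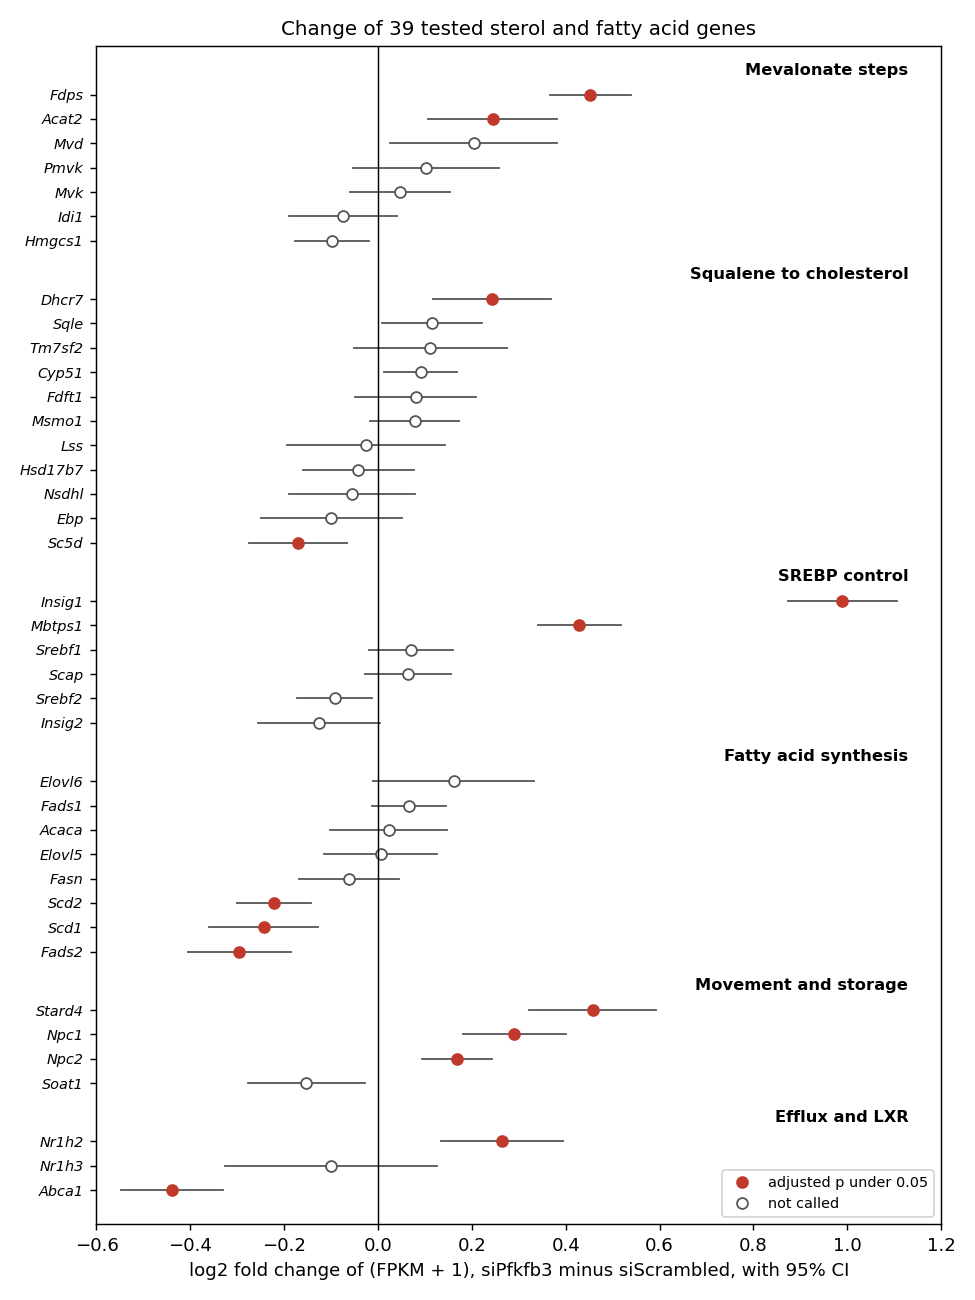
Log2 fold change of (FPKM + 1), siPfkfb3 minus siScrambled, for the 39 tested genes by role, with lines for the 95% confidence interval and filled points for an adjusted p under 0.05. Insig1 stands alone at 0.99; the other called genes lie between −0.44 and 0.46.

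The libraries were close in overall make-up, but the number of rows that reached 1 FPKM did not overlap between groups. It was 11189 to 11204 in siPfkfb3 and 11214 to 11247 in siScrambled. The mitochondrial genome gave 6.48% to 7.35% of the summed FPKM, and the number of reads is unknown. Pfkfb3 itself was at 1.92, 1.65 and 1.77 FPKM in siPfkfb3, against 4.03, 4.02 and 3.86 FPKM in siScrambled, a mean of 44.9% of the control (log2 fold change −0.84 ± 0.07 SE, adjusted p = 2.66e-05; exact two-sided permutation test, p = 0.1, the smallest that 3 against 3 samples can give). The genotype labels of 2 siPfkfb3 samples, replicates 2 and 3, name PFKFB4 and PFKFB5, while their titles name PFKFB3. Pfkfb4 was at 1.95, 1.49 and 1.53 FPKM in siPfkfb3 and 1.58, 1.96 and 2.10 FPKM in siScrambled. It was not called (adjusted p = 0.417), but that fit pools the 3 siPfkfb3 samples and cannot settle the labels of single samples. All 7 smooth muscle markers reached 1 FPKM, and their summed level was 2820 to 2897 FPKM in siPfkfb3 and 2510 to 2614 FPKM in siScrambled, with Acta2 and Cnn1 called higher and Myl9 lower. The sum follows Acta2, which averaged 1700.0 ± 29.9 FPKM in siPfkfb3 and 1339.7 ± 39.01 FPKM in siScrambled (n = 3 each), while the other markers, apart from Cnn1, had log2 fold changes from −0.13 to −0.02, and Tagln, Myh11, Smtn and Myl9 lay below the controls in every siPfkfb3 sample. The 4 fibroblast markers were also abundant, summing to 2614 to 2690.1 FPKM in siPfkfb3 and 2859 to 2879 FPKM in siScrambled. That sum follows Col1a1, which averaged 2074 ± 42.8 FPKM in siPfkfb3 and 2251 ± 38.8 FPKM in siScrambled (n = 3 each); Col1a1 and Lum were called lower and Pdgfra higher (log2 fold change 0.14, adjusted p = 0.0228), and Dcn was not called. Quantile scaling ended the calls of Myl9, Col1a1 and Lum (adjusted p = 0.105, 0.668 and 0.232), limma without trend and robust fit those of Col1a1 and Lum, and the call of Pdgfra ended without any 1 siPfkfb3 replicate or without siScrambled replicate 1 or 3 (adjusted p of up to 0.0741). None of 5 endothelial markers reached 1 FPKM in any library, and they summed to 0.519 to 0.716 FPKM in siPfkfb3 and 0.946 to 1.17 FPKM in siScrambled. Of 6 macrophage and leukocyte markers, 3 did: Lyz2, Cd68 and Cd14. The 6 summed to 15.99 to 16.6 FPKM in siPfkfb3 and 14.8 to 15.4 FPKM in siScrambled. Most of that sum was Lyz2, at 13.4 ± 0.312 FPKM in siPfkfb3 and 12.2 ± 0.097 FPKM in siScrambled (n = 3 each), without overlap. Lyz2 was not called (adjusted p = 0.0563), but was called higher with TPM, TMM and quantile scaling (adjusted p = 0.0337 with TMM). Cd68 and Cd14 overlapped between groups and were not called, though Cd68 was called lower without siPfkfb3 replicate 1 (adjusted p = 0.0174). Ptprc, the defining leukocyte marker, did not exceed 0.0179 FPKM. The part of these differences in the results below was not tested.

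Insig1 showed the largest change of the 39 genes. It encodes the sterol-sensing protein that retains Scap and is itself a target of SREBP (chromosome 5, 28071363 to 28078662, plus strand, ENSMUSG00000045294; GRCm38). Its level was 70.3, 66.03 and 66.5 FPKM in siPfkfb3, against 33.00, 31.7 and 36.1 FPKM in siScrambled. Every siPfkfb3 value exceeded every control value by a wide margin, and the mean came to 201% of control (log2 fold change 0.99 ± 0.05 SE, adjusted p = 1.33e-06). Among all genes tested, 56 (0.498%) were called and higher by at least as much. Insig2, the paralog that is not turned on by SREBP in the same way, stood at 12.2, 10.9 and 11.9 FPKM in siPfkfb3, against 12.8, 13.3 and 12.4 FPKM in siScrambled. Its groups did not overlap, with siPfkfb3 the lower, but it was not called (log2 fold change −0.13 ± 0.06 SE, adjusted p = 0.122).

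The remaining control genes fell into 1 that changed and 3 that were not called. Of all 6 control genes, 33.3% were called, beside 36.3% of all genes tested. Mbtps1, the site-1 protease that starts SREBP cleavage, rose (chromosome 8, 119508156 to 119558735, minus strand, ENSMUSG00000031835). It was at 47.7, 49.5 and 50.03 FPKM in siPfkfb3, against 35.3, 37.3 and 35.9 FPKM in siScrambled (log2 fold change 0.43 ± 0.04 SE, adjusted p = 3.49e-05), and the groups stood well apart. The factors themselves were nearly level. Srebf1, which favours fatty acid genes, had 24.5, 25.00 and 25.2 FPKM in siPfkfb3, against 24.04, 23.6 and 23.4 FPKM in siScrambled (95% confidence interval of the log2 fold change −0.02 to 0.16, adjusted p = 0.204). Srebf2, which favours cholesterol genes, had 44.6, 45.7 and 44.1 FPKM in siPfkfb3, against 48.4, 46.9 and 48.1 FPKM in siScrambled (interval −0.17 to −0.01, adjusted p = 0.0715). Scap, the escort, stood at 25.00, 24.2 and 24.96 FPKM in siPfkfb3 and at 23.5, 23.3 and 24.05 FPKM in siScrambled (interval −0.03 to 0.15, adjusted p = 0.254). For these last 3 genes the groups did not overlap, as was so for 49.5% of all genes tested, and none passed the test. Exons of Srebf1 and Scap overlap genes on the opposite strand, and whether counting used strand is not given in the sources used here.

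**Figure D2:**
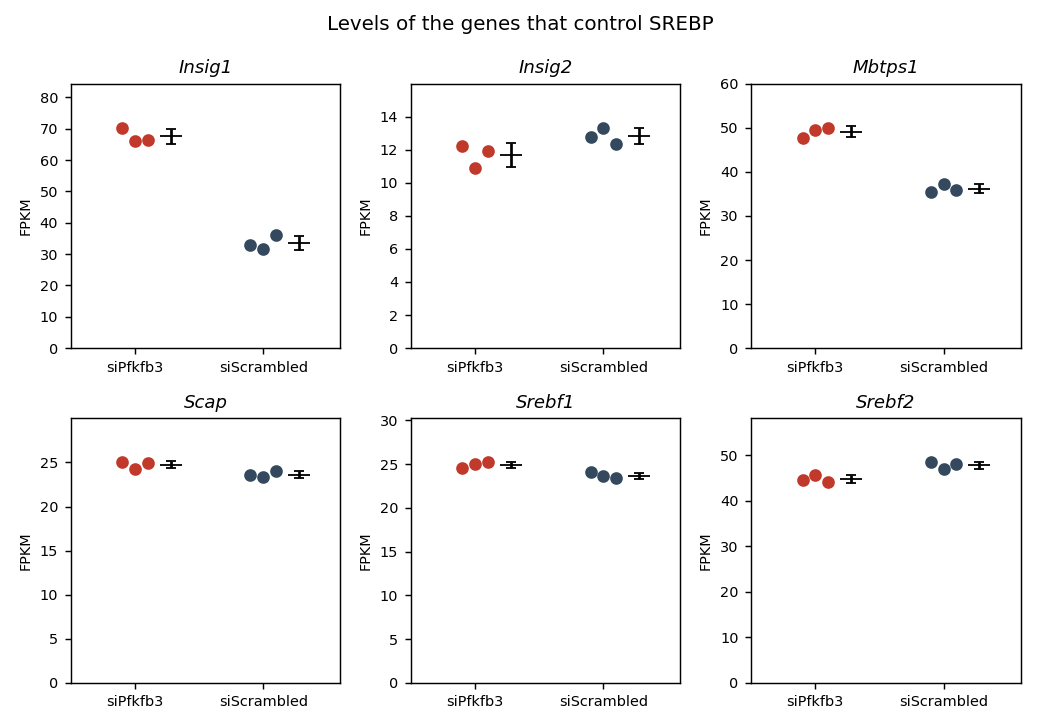
FPKM of the 6 control genes in each library, with siPfkfb3 samples left and siScrambled samples right in each panel; the bar beside the points is the mean with its SD (n = 3 each). Insig1 averaged 67.6 ± 2.37 FPKM in siPfkfb3 and 33.6 ± 2.26 FPKM in siScrambled, while Scap, Srebf1 and Srebf2 differed by less than 10% of the control mean.

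The early enzymes of cholesterol synthesis, from acetyl-CoA to farnesyl diphosphate, gave 2 higher genes of 7 and none lower (28.6% called, beside 36.3% of all genes tested). Fdps, which makes farnesyl diphosphate, the branch point to sterols and to prenylated proteins, changed most (chromosome 3, 89093588 to 89101959, minus strand, ENSMUSG00000059743). It stood at 98.3, 102 and 104 FPKM in siPfkfb3, against 75.3, 70.5 and 75.3 FPKM in siScrambled (log2 fold change 0.45 ± 0.04 SE, adjusted p = 2.26e-05). The groups were clearly apart, although an exon of Fdps overlaps the gene model Gm43738 on the same strand. Acat2, the cytosolic thiolase that joins acetyl-CoA units, rose as well (chromosome 17, 12942890 to 12960747, minus strand, ENSMUSG00000023832). Its values were 19.04, 21.7 and 22.1 FPKM in siPfkfb3 and 17.2, 17.00 and 18.3 FPKM in siScrambled (log2 fold change 0.24 ± 0.06 SE, adjusted p = 0.0119), with the lowest siPfkfb3 sample just above the highest control. Acat3, a close copy listed apart, stood at 2.92, 2.49 and 2.20 FPKM in siPfkfb3 and 2.34, 1.83 and 1.76 FPKM in siScrambled, and reads shared between the copies could move both values.

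Hmgcs1, the synthase that commits acetoacetyl-CoA to the pathway and a textbook SREBP target, did not follow Insig1. It had 76.4, 77.3 and 77.7 FPKM in siPfkfb3, against 80.5, 85.9 and 81.5 FPKM in siScrambled, so that all siPfkfb3 samples lay slightly below all controls (log2 fold change −0.10 ± 0.04 SE, adjusted p = 0.0561). It was called lower when only genes averaging 5 FPKM or more were tested (adjusted p = 0.0494). Hmgcs1 exons overlap Gm48342 on the opposite strand. Mvd, the decarboxylase that makes isopentenyl diphosphate, stood at 16.8, 15.5 and 15.9 FPKM in siPfkfb3 and 15.5, 12.1 and 13.9 FPKM in siScrambled, and 1 control sample lay at the level of the siPfkfb3 group. Mvd was not called (log2 fold change 0.20 ± 0.08 SE, adjusted p = 0.0730), but was called higher with TPM scaling and without siScrambled replicate 1 (adjusted p = 0.0392 and 0.0170). The kinases Mvk and Pmvk and the isomerase Idi1 overlapped between groups, with log2 fold changes of 0.05, 0.10 and −0.07 and adjusted p of 0.287 to 0.483.

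From squalene to cholesterol, 9 of 11 enzymes were not called (18.2% called, beside 36.3% of all genes tested). Dhcr7, which performs the last reduction to cholesterol, rose (chromosome 7, 143823145 to 143848410, plus strand, ENSMUSG00000058454): it stood at 10.4, 9.76 and 9.48 FPKM in siPfkfb3, against 8.43, 8.15 and 7.97 FPKM in siScrambled (log2 fold change 0.24 ± 0.06 SE, adjusted p = 0.00753). Sc5d, the desaturase of the step before it, moved the other way (chromosome 9, 42251595 to 42264256, minus strand, ENSMUSG00000032018). Its level was 22.7, 23.5 and 23.5 FPKM in siPfkfb3, against 25.02, 27.4 and 26.4 FPKM in siScrambled (log2 fold change −0.17 ± 0.05 SE, adjusted p = 0.0180). Neither gene's groups overlapped. The call of Sc5d ended without siPfkfb3 replicate 1, siScrambled replicate 2 or siScrambled replicate 3 (adjusted p = 0.0598, 0.0534 and 0.0555).

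Sqle, the epoxidase that is a main control point of the pathway after mevalonate, stood at 83.1, 89.8 and 94.5 FPKM in siPfkfb3 and 80.2, 84.5 and 81.8 FPKM in siScrambled. The lowest siPfkfb3 value fell within the control range (log2 fold change 0.11 ± 0.05 SE, adjusted p = 0.0891), and without that sample, siPfkfb3 replicate 1, Sqle was called higher (adjusted p = 0.0170). Cyp51, the lanosterol demethylase, was at 56.3, 57.3 and 58.7 FPKM in siPfkfb3 and 52.9, 54.5 and 54.2 FPKM in siScrambled. Its groups did not overlap, but the difference did not pass (log2 fold change 0.09 ± 0.03 SE, adjusted p = 0.0683); it did pass on columns scaled by TPM, by TMM or by quantiles (adjusted p = 0.0448, 0.0325 and 0.0208). The others were Fdft1, which makes squalene, Lss, which closes the ring, and Tm7sf2, Msmo1, Nsdhl, Hsd17b7 and Ebp, which trim and rearrange it. Their log2 fold changes ran from −0.10 for Ebp to 0.11 for Tm7sf2, with overlapping groups and adjusted p of 0.178 or more. Msmo1 alone of these 7 was called in another setting, higher without siScrambled replicate 2 (adjusted p = 0.0405). Of the 4 called enzymes, Acat2 and Fdps thus lie early in the pathway and Sc5d and Dhcr7 at its end, as the plot of cholesterol synthesis enzymes shows.

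**Figure D3:**
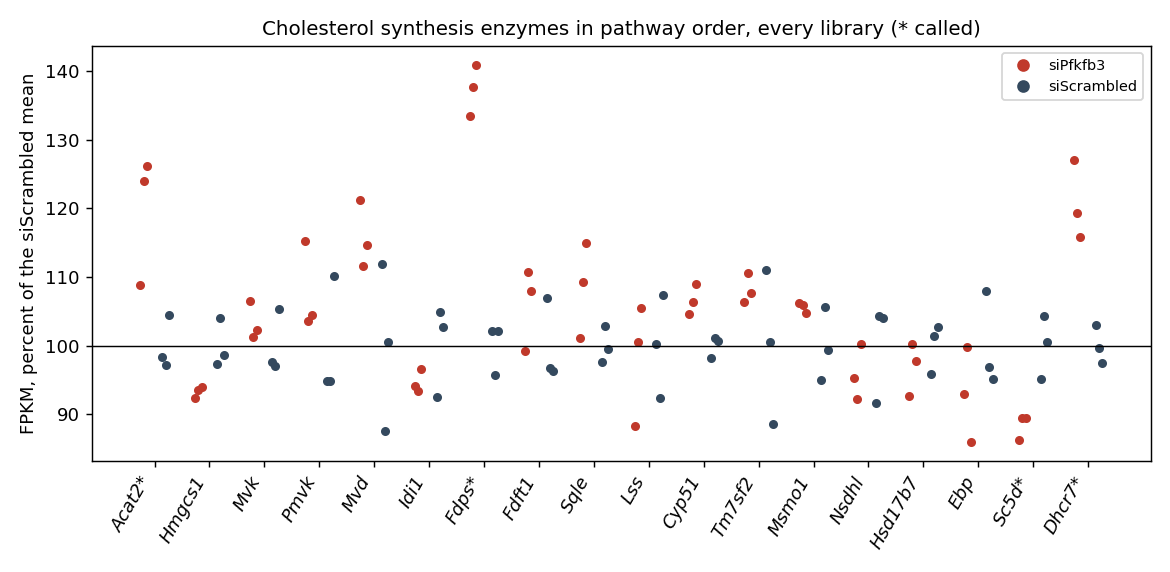
FPKM of each library as percent of the siScrambled mean for the 18 cholesterol synthesis enzymes, roughly in pathway order, with siPfkfb3 points left of siScrambled points and an asterisk on called genes. Fdps lies highest, at a siPfkfb3 mean of 137% of control, and Sc5d has the lowest siPfkfb3 mean, 88.4%.

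Because Insig1 and Hmgcs1 are both SREBP targets and moved apart, and because Srebf2 and Abca1 stand for the factor itself and for the LXR arm, their promoters are shown with the elements searched for. The windows run from 250 bases before to 50 after the annotated start, 5′ to 3′ on the strand of the gene, from RefSeq on GRCm38.p6. Capitals mark matches, on either strand, to TCACNCCAC (the core of the sterol regulatory element), TCACGTGA (an E box that SREBP-1 can bind), CCAAT (bound by NF-Y) and GGGCGG (bound by Sp1). Within these windows no matches overlap. The windows are chr5:28071162-28071461, plus strand for Insig1, chr13:119690101-119690400, plus strand for Hmgcs1, chr15:82147019-82147318, plus strand for Srebf2 and chr4:53159846-53160145, minus strand for Abca1.
Insig1: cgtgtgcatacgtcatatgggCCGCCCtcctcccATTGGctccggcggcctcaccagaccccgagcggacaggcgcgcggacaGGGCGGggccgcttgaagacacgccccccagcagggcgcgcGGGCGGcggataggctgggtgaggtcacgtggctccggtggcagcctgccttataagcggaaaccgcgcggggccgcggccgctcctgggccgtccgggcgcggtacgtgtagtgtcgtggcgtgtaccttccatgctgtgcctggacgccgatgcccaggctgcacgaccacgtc
Hmgcs1: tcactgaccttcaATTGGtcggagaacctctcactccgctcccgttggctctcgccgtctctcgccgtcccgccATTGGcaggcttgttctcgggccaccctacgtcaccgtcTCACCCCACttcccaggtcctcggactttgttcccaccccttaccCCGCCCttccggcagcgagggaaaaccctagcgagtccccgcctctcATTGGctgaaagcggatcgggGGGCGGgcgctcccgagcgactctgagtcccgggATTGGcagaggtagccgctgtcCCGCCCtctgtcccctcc
Srebf2: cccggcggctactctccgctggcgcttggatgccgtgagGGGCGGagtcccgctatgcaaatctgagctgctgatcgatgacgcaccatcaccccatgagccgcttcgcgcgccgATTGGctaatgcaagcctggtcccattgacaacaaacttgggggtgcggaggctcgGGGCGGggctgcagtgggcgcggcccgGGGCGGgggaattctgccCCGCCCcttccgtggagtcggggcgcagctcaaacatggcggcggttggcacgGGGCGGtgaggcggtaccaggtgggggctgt
Abca1: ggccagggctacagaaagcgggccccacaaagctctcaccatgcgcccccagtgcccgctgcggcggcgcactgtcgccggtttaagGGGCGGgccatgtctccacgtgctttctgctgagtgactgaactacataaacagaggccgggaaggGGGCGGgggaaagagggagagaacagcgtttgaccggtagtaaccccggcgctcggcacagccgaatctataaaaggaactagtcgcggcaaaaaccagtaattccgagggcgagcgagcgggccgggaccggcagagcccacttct

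The Insig1 window holds 1 match to CCAAT and 3 to GGGCGG. The Hmgcs1 window holds 1 match to TCACNCCAC, 4 to CCAAT and 3 to GGGCGG, the first starting at position −137 from the start. Srebf2 has 1 CCAAT and 5 GGGCGG, and Abca1 has 2 GGGCGG. RefSeq windows were matched for 31 of the 40 genes. No window was available for the called genes Fdps, Stard4, Npc1, Scd1 and Scd2, nor for Sqle, Fdft1, Fads1 and Abcg1, so the shares do not cover them. Among the 31, 1 gene (Hmgcs1) holds TCACNCCAC in a window, beside 1.44% of all 27025 genes with a window, and none holds TCACGTGA, beside 1.12%. CCAAT is found in 22 of the 31 (71.0%), beside 41.1% of all genes, and GGGCGG in 24 (77.4%), beside 38.2%. The 27025 genes were not limited to those expressed in these samples, as nearly all members are, so the 2 shares are not of like genes. A share among expressed genes only was not taken. A match is a description of letters, not a site, and GGGCGG is common in GC-rich promoters such as these 4, whose GC content is 62.7% to 71.7%. Only the letters given were matched, with N as any base, so variants of these elements were not counted. Elements outside these windows were not searched.

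Fatty acid synthesis showed 3 lower genes of 8 and none higher, and those 3 encode desaturases. That is 37.5% called, near the 36.3% of all genes tested, of which 20.5% were lower. Scd2, a stearoyl-CoA desaturase and the most abundant of the 40 genes per length, fell (chromosome 19, 44293674 to 44306864, plus strand, ENSMUSG00000025203). It was at 183, 197 and 197 FPKM in siPfkfb3, against 225, 224 and 224 FPKM in siScrambled (log2 fold change −0.22 ± 0.04 SE, adjusted p = 0.00101). The controls lay within 1 FPKM of one another, and siPfkfb3 replicate 1 was the lowest sample. Scd1, its neighbour in the genome with the same activity, had 35.9, 41.4 and 38.2 FPKM in siPfkfb3, against 46.8, 45.2 and 45.2 FPKM in siScrambled (log2 fold change −0.24 ± 0.05 SE, adjusted p = 0.00505; chromosome 19, 44394455 to 44407879, minus strand, ENSMUSG00000037071). The groups did not overlap for either gene. The related Scd3 and Scd4 did not exceed 1.44 FPKM in any library, and reads shared among these similar genes could be split between them. The ratio of Scd2 to Scd1 within a library was 5.09, 4.77 and 5.16 in siPfkfb3 and 4.81, 4.96 and 4.96 in siScrambled, ranges that overlap.

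Fads2, the delta-6 desaturase that starts the making of long polyunsaturated fatty acids, fell most in this group (chromosome 19, 10062765 to 10101746, minus strand, ENSMUSG00000024665). Its values were 56.7, 62.4 and 55.1 FPKM in siPfkfb3, against 73.2, 69.5 and 71.5 FPKM in siScrambled (log2 fold change −0.30 ± 0.05 SE, adjusted p = 0.00121). Fads1, the delta-5 desaturase beside it on the chromosome, did not fall: it had 55.2, 55.7 and 55.5 FPKM in siPfkfb3 and 53.4, 51.3 and 54.1 FPKM in siScrambled, with siPfkfb3 slightly the higher in every sample (log2 fold change 0.07 ± 0.04 SE, adjusted p = 0.178). The ratio of Fads2 to Fads1 within a library, which does not depend on library scaling, was 1.03, 1.12 and 0.992 in siPfkfb3, against 1.37, 1.36 and 1.32 in siScrambled. The siPfkfb3 ratios all lay below the controls (difference of log2 ratios −0.37; exact two-sided permutation test, p = 0.1, the smallest possible, adjusted p = 0.125 over 5 ratios chosen after the values had been seen).

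The enzymes that build the carbon chain were not called. Fasn, fatty acid synthase, had 23.95, 24.8 and 23.1 FPKM in siPfkfb3 and 24.6, 24.3 and 26.1 FPKM in siScrambled (95% confidence interval of the log2 fold change −0.17 to 0.04). Acaca, the carboxylase that supplies malonyl-CoA, had 11.3, 11.5 and 11.7 FPKM in siPfkfb3 and 11.9, 10.6 and 11.4 FPKM in siScrambled (interval −0.10 to 0.15). Both overlapped between groups. The elongases Elovl5 and Elovl6 were at log2 fold changes of 0.01 and 0.16 (adjusted p = 0.949 and 0.130). Among 5 adipocyte markers, Fabp4, a fatty acid carrier, was the only one to reach 1 FPKM; it was lower in siPfkfb3 (20.9 ± 1.23 FPKM in siPfkfb3 and 27.1 ± 0.364 FPKM in siScrambled; log2 fold change −0.36 ± 0.05 SE, adjusted p = 0.000446). The 5 summed to 19.5 to 21.9 FPKM in siPfkfb3 and 26.7 to 27.4 FPKM in siScrambled. Cidec and Lep were listed at 0 in every library, and Adipoq and Plin1 did not exceed 0.0801 FPKM. The part of Fabp4-expressing cells in the desaturase values was not tested.

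**Figure D4:**
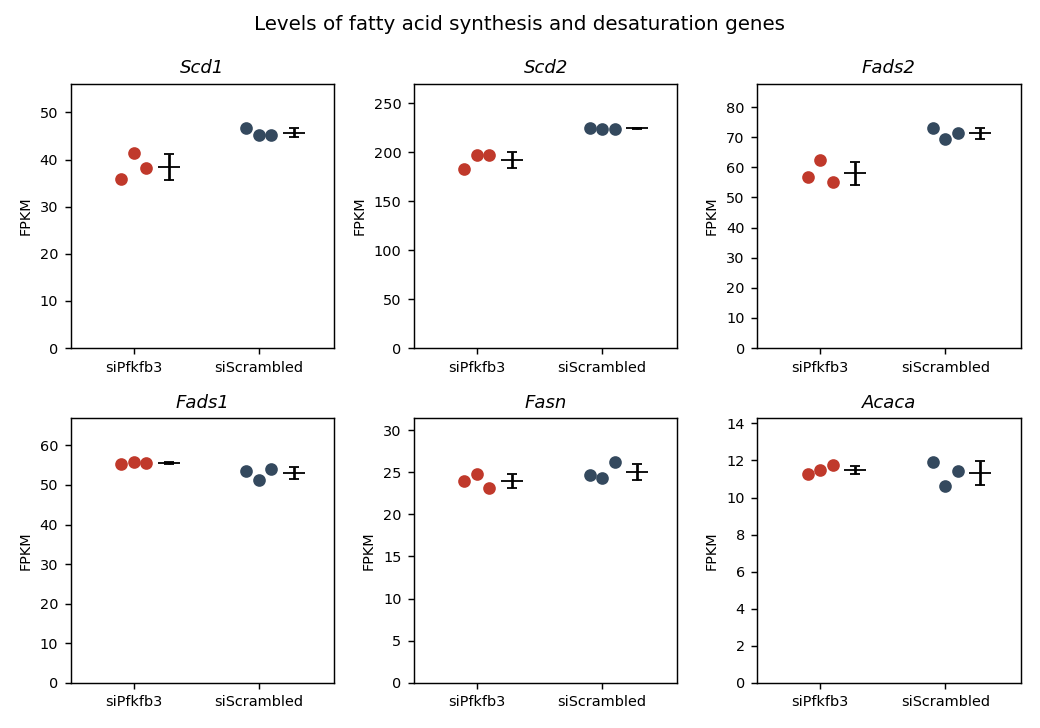
FPKM of 6 fatty acid genes in each library, siPfkfb3 left and siScrambled right, with the mean and SD (n = 3 each). Scd1, Scd2 and Fads2 are lower in siPfkfb3 without overlap, at 84.2%, 85.7% and 81.3% of the control mean, while Fasn and Acaca overlap.

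Among the 4 genes that move and store sterols, 3 rose, beside 15.8% of all genes tested. Stard4, a carrier that shuttles cholesterol between membranes and a target of SREBP-2, had 11.9, 10.8 and 11.5 FPKM in siPfkfb3, against 7.71, 8.60 and 7.83 FPKM in siScrambled (log2 fold change 0.46 ± 0.06 SE, adjusted p = 0.000335; chromosome 18, 33199355 to 33213862, minus strand, ENSMUSG00000024378). Npc1, the membrane protein that lets cholesterol taken up with lipoproteins leave the lysosome, was at 19.9, 19.2 and 18.7 FPKM in siPfkfb3 and 15.3, 15.2 and 16.2 FPKM in siScrambled (log2 fold change 0.29 ± 0.05 SE, adjusted p = 0.00138). Its soluble partner Npc2 was at 112, 108 and 109 FPKM in siPfkfb3, against 99.5, 98.00 and 95.02 FPKM in siScrambled (log2 fold change 0.17 ± 0.03 SE, adjusted p = 0.00333). None of the 3 overlapped between groups, though exons of Npc1 overlap Rmc1 and Gm15956 on the opposite strand. Soat1, which esterifies cholesterol for storage, lay on the other side, at 8.59, 8.73 and 9.07 FPKM in siPfkfb3 and 9.39, 10.1 and 10.2 FPKM in siScrambled. Its groups did not overlap, and it missed the threshold (log2 fold change −0.15 ± 0.06 SE, adjusted p = 0.0560); it was called lower among genes of at least 5 FPKM and without siScrambled replicate 1 (adjusted p = 0.0498 and 0.0446).

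Among the efflux genes, the exporters Abca1 and Abcg1 both lay lower in siPfkfb3, and the gene that rose, Nr1h2, encodes an LXR factor. Abca1, which loads cholesterol onto apolipoproteins at the cell surface, fell (chromosome 4, 53030787 to 53159895, minus strand, ENSMUSG00000015243). It had 13.1, 13.4 and 12.7 FPKM in siPfkfb3, against 18.3, 18.4 and 17.4 FPKM in siScrambled (log2 fold change −0.44 ± 0.05 SE, adjusted p = 0.000106), the largest decrease among the 39 genes, with a clear gap between groups. Abcg1, the exporter to mature HDL, was scarce: 0.221, 0.188 and 0.12 FPKM in siPfkfb3 and 0.344, 0.351 and 0.446 FPKM in siScrambled. All siPfkfb3 values were again below the controls, and the gene, tested only where no filter on low values was used, was then called lower (adjusted p = 0.0356). Nr1h2, the LXR form found in most tissues, rose, with 25.1, 28.3 and 26.00 FPKM in siPfkfb3, against 21.8, 20.7 and 23.2 FPKM in siScrambled (log2 fold change 0.26 ± 0.06 SE, adjusted p = 0.00603; chromosome 7, 44549616 to 44553951, minus strand, ENSMUSG00000060601). Nr1h3, the LXR form of liver and macrophages, was low and overlapped between groups, at 1.56, 1.66 and 1.26 FPKM in siPfkfb3 and 1.55, 1.94 and 1.52 FPKM in siScrambled (log2 fold change −0.10 ± 0.10 SE, adjusted p = 0.470).

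**Figure D5:**
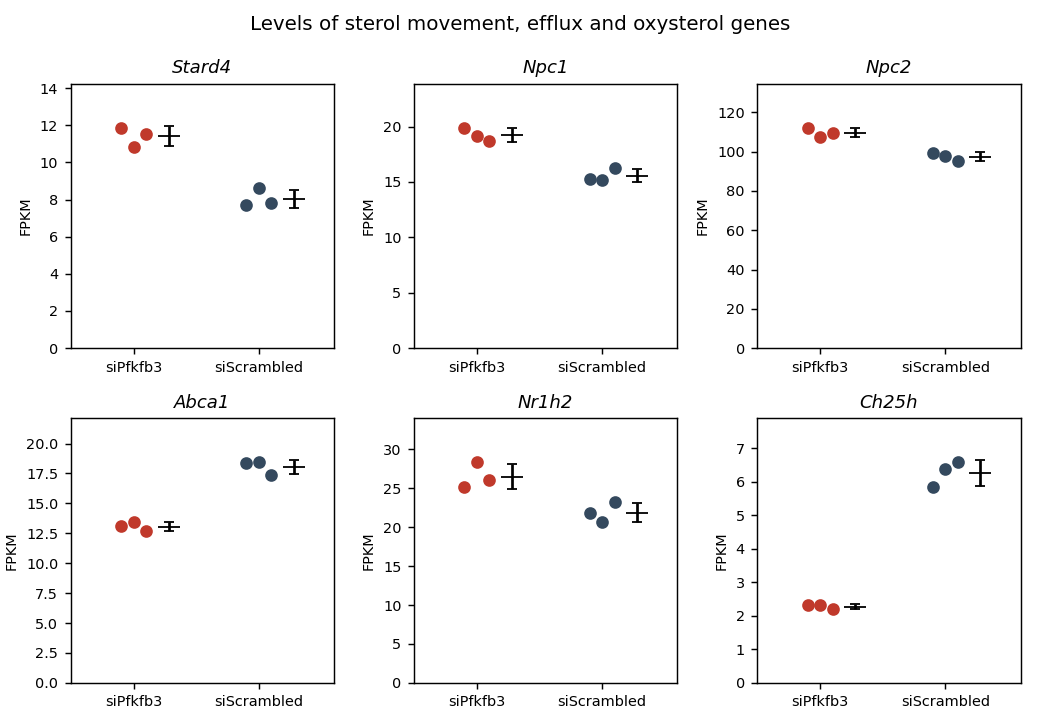
FPKM of 6 genes of sterol movement, efflux and oxysterol synthesis in each library, siPfkfb3 left and siScrambled right, with the mean and SD (n = 3 each). Stard4, Npc1, Npc2 and Nr1h2 are higher in siPfkfb3 and Abca1 and Ch25h lower, none with overlap; the siPfkfb3 means of Abca1 and Ch25h are 72.3% and 36.4% of control.

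A further 34 genes of the pathway were listed by function; 32 were tested, of which 6 rose and 8 fell (43.8% called, beside 36.3% of all genes tested), with a median log2 fold change of 0.01. Ch25h, which makes 25-hydroxycholesterol, an oxysterol that binds Insig and blocks SREBP processing, changed most. It had 2.32, 2.31 and 2.19 FPKM in siPfkfb3, against 5.83, 6.36 and 6.57 FPKM in siScrambled (log2 fold change −1.15 ± 0.07 SE, adjusted p = 3e-06), so every siPfkfb3 value lay far below the lowest control. Exons of Ch25h overlap Gm26902 on the opposite strand.

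Mylip, a ubiquitin ligase induced by LXR, rose, while Abca1, also induced by LXR, fell. Mylip stood at 13.2, 12.8 and 12.9 FPKM in siPfkfb3, against 9.62, 8.69 and 8.84 FPKM in siScrambled (log2 fold change 0.48 ± 0.05 SE, adjusted p = 0.000131). The Mylip to Abca1 ratio within a library was 1.00, 0.957 and 1.02 in siPfkfb3, against 0.524, 0.472 and 0.508 in siScrambled (difference of log2 ratios 0.99; exact two-sided permutation test, p = 0.1, adjusted p = 0.125 over the same 5 ratios). Lpcat3, a phospholipid acyltransferase that LXR also induces, fell, with a log2 fold change of −0.26 (adjusted p = 0.00132), and Rxra, the partner of LXR, rose by 0.21 (adjusted p = 0.00316). Mylip thus rose, while Abca1 and Lpcat3 fell. These 3 are not all the genes that LXR induces, and no full list of them was drawn up. The scarce exporter Abcg1 also lay lower in every siPfkfb3 sample. Whether LXR had a part in these changes was not tested.

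On the synthesis side of that list, none of 12 tested genes rose and 3 fell (25.0% called, beside 36.3% of all genes tested, of which 20.5% were lower). Acly, which makes cytosolic acetyl-CoA for both pathways, averaged 45.7 ± 0.881 FPKM in siPfkfb3 and 51.1 ± 0.278 FPKM in siScrambled (n = 3 each; log2 fold change −0.16 ± 0.03 SE, adjusted p = 0.00575). Hacd2 and Tecr, which dehydrate and reduce the growing very long fatty acid, fell, with log2 fold changes of −0.60 and −0.24 (adjusted p = 0.000188 and 0.00668); exons of Hacd2 overlap a gene on the opposite strand. Ggps1, which draws farnesyl diphosphate into protein prenylation, was not called (log2 fold change −0.01 ± 0.08 SE, adjusted p = 0.934). Acss2 and Me1, which supply acetyl-CoA and NADPH and are known SREBP-1 targets, were not called either, at 0.06 and 0.02 (adjusted p = 0.511 and 0.665).

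Of 7 further control genes, 2 were called (28.6%, beside 36.3% of all genes tested). Erlin2, of a complex that restrains SREBP, rose (log2 fold change 0.29 ± 0.07 SE, adjusted p = 0.00694) and Pgrmc1, a haem-binding membrane protein known to bind Insig and Scap, fell (log2 fold change −0.35 ± 0.04 SE, adjusted p = 7.67e-05). Erlin1, of the same complex as Erlin2, lay higher in siPfkfb3 without overlap but was not called (log2 fold change 0.10 ± 0.05 SE, adjusted p = 0.148). Mbtps2, the second protease of SREBP cleavage, was not called, with 6.44, 6.07 and 6.50 FPKM in siPfkfb3 and 6.35, 5.96 and 6.19 FPKM in siScrambled. Its interval of −0.10 to 0.17 for the log2 fold change does not reach the 0.43 of Mbtps1. A test of the difference between the proteases was not run.

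Of 7 genes of lipoprotein uptake, release from the lysosome and sterol carriage, 3 rose and 2 fell (71.4% called, beside 36.3% of all genes tested). Osbp, an oxysterol-binding carrier, and Stard3, a carrier on late endosomes, rose by 0.30 and 0.35 (adjusted p = 0.00243 and 0.0305). The scavenger and lipoprotein receptor Lrp1 rose by 0.10 (adjusted p = 0.0254). Vldlr, a receptor for triglyceride-rich particles, and Lipa, the lysosomal lipase that frees cholesterol from its esters, fell by 0.35 and 0.22 (adjusted p = 0.00102 and 0.00265). The calls of Lrp1 and Stard3 each ended in 5 of 15 other settings, with adjusted p of up to 0.104 for Lrp1 and 0.0845 for Stard3: for Lrp1 these were limma without trend and robust fit and the fits without siPfkfb3 replicate 2 or 3 or siScrambled replicate 1 or 3, and for Stard3 the fit with no filter on low values and those without any 1 siPfkfb3 replicate or without siScrambled replicate 1. Scarb1, the receptor for HDL, was not called (log2 fold change 0.06 ± 0.05 SE, adjusted p = 0.432).

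Set against one another within each library, Insig1 departed from Insig2 and Hmgcs1. The Insig1 to Insig2 ratio was 5.76, 6.08 and 5.56 in siPfkfb3, against 2.59, 2.38 and 2.92 in siScrambled (difference of log2 ratios 1.15). The Insig1 to Hmgcs1 ratio was 0.921, 0.854 and 0.856 in siPfkfb3, against 0.41, 0.369 and 0.443 in siScrambled (difference 1.11). Neither ratio overlapped between groups, and both had p = 0.1 in the exact two-sided permutation test, its lowest possible value, with adjusted p = 0.125 over the 5 ratios. FPKM being per length, these are ratios of levels, and both were chosen after the values had been seen.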

How the data were processed

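RNA was taken up in TRIzol and turned into mRNA libraries, per the labels' protocols. The submitters' processing notes name HISAT2 as a tool and GRCm38 (mm10) as the build; the version, the counting tool, the use of strand and the gene annotation are not given in sources used here. The authors deposited 1 table headed FPKM, in which every sample has its own column. FPKM carries no counts, so depth is unknown, no counting intervals are given and no count model was run. An exact 0 was not read as absence. Groups and replicate numbers came from the sample titles.

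Symbols were found for 22022 of 22036 Ensembl rows; the remaining 2934 rows are unnamed new genes. Genes that averaged 1 FPKM or more in the 6 samples (11240) were tested on log2(FPKM + 1) with limma 3.58.1 in R 4.3.3, with trend and robust fit, two-sided, and Benjamini-Hochberg adjustment over all of them. This scale understates changes of low genes. Every adjusted p is from this fit unless another setting is named, and n is 3 in each group. The members and lists were chosen with earlier results of these data known. Values in every sample are given for called members, for 11 control, efflux and desaturase genes and for further members chosen after their values were seen; other members are given by range.

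The fit was run on simulated data with independent normal noise before use. Of 100 genes changed by 0.5 and 100 changed by 1 in log2, 99 and 100 were recovered. Of 209 calls, 10 were of unchanged genes. Changes smaller than 0.5, as in nearly all members, and noise shared between samples were not simulated. Whether same-numbered samples of the 2 groups belong together is not known. Positions and exon overlaps are from GENCODE M21 on GRCm38. Of the 40 genes, exons of 13 overlap those of another gene, 9 of them on the opposite strand. Promoter windows are from RefSeq (GRCm38.p6). Ratios, motif searches and figures used Python 3.11.15, numpy 2.4.6, pandas 2.3.3, scipy 1.17.1 and matplotlib 3.10.9. Alternatives were pseudocounts of 0.1 and 0.5, no filter, a mean of at least 5 FPKM, TPM, TMM (an unweighted trimmed mean of log ratios) and quantile scaling, limma without trend and robust fit, a replicate block, and leaving out each library.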

Additional observations from a re-analysis of the deposited data

How the results depend on the processing

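Of the 14 called members, 13 were called in all 15 alternatives; Sc5d was the exception. Another 7 members gained a call in at least 1 alternative (Hmgcs1, Mvd, Sqle, Cyp51, Msmo1, Soat1 and Abcg1), the last only without a filter. No called member changed direction. Between 9 and 11 members were higher and 4 to 7 lower over all settings; without 1 library each, 9 to 10 were higher and 4 to 6 lower. Over all genes, leaving out 1 library gave 1451 to 1637 higher and 1881 to 2064 lower, and for the further pathway genes 4 to 6 higher and 8 to 9 lower. Scaling to TPM gave 48.9% of calls higher, beside 43.5% as deposited. Pfkfb3 ranged from −0.88 to −0.80 without 1 library; it was not tested at a mean of at least 5 FPKM.

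With the replicate number as a block, 10 members were higher and 5 lower, and 1680 and 2227 of all genes; among members it added the call of Mvd (adjusted p = 0.0287). Deviations of same-numbered samples correlated at −0.11, 0.06 and 0.05 across genes, and those of differently numbered samples at −0.16 to 0.12. Being taken from means of 3 samples, these values cannot settle whether the numbers pair the samples. Depth is unknown, which limits what can be said of genes near the filter, such as Abcg1 and Nr1h3.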

Other observations

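Lists of neighbouring lipid pathways, drawn up after earlier results of these data were known, held calls in both directions, beside many genes that were not called. Of 17 genes of triglyceride and phosphatidate synthesis and breakdown, 15 were tested; 2 rose and 4 fell, with a median log2 fold change of −0.01 (40% called, close to the 36.3% of all genes tested). One of the higher calls, of the acyltransferase Agpat2, ended with no filter on low values and without siPfkfb3 replicate 1 or 2 or siScrambled replicate 2 or 3 (adjusted p = 0.0603 to 0.0955). Lpin1, a phosphatidate phosphatase that SREBP can induce, rose, with 7.15, 8.21 and 7.58 FPKM in siPfkfb3, against 5.26, 5.75 and 6.23 FPKM in siScrambled (log2 fold change 0.36 ± 0.07 SE, adjusted p = 0.00448). The groups did not overlap. Gpam, which starts glycerolipid synthesis and is a known SREBP-1 target, fell, with 12.8, 12.97 and 13.2 FPKM in siPfkfb3, against 16.3, 16.4 and 15.9 FPKM in siScrambled (log2 fold change −0.30 ± 0.05 SE, adjusted p = 0.000738). The lipases Mgll and Pnpla2 fell by 0.44 and 0.31 (adjusted p = 0.000621 and 0.00408). Plin2, a coat protein of lipid droplets, averaged 26.7 ± 1.07 FPKM in siPfkfb3 and 26.5 ± 1.64 FPKM in siScrambled (n = 3 each) and was not called (adjusted p = 0.891).

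Of 17 sphingolipid genes, all tested, 4 rose and 5 fell (52.9% called, beside 36.3% of all genes tested), with a median log2 fold change of −0.05; the call of the kinase Sphk1, lower, ended without siPfkfb3 replicate 1 or 2 or siScrambled replicate 3 (adjusted p = 0.0596 to 0.0697). Ceramide synthases divided: Cers6 and Cers5 rose by 0.33 and 0.25 (adjusted p = 0.00126 and 0.00809), whereas Cers2, the most abundant of the 4 listed per length, fell to 60.9 ± 1.54 FPKM in siPfkfb3, against 74.3 ± 2.68 FPKM in siScrambled (log2 fold change −0.28 ± 0.04 SE, adjusted p = 0.00042). Cers2 exons overlap other genes on the opposite strand. Sgpl1, the lyase that ends the pathway, rose by 0.29 and Sgms1, a sphingomyelin synthase, fell by 0.32 (adjusted p = 0.000285 and 0.00268).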
